A study of Arabidopsis thaliana with 29 samples.

Results

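RNA-seq values were examined for 9 genes of ABA signalling: the bZIP transcription factors ABF1, ABF2, ABF3, ABF4, ABI5 and GBF3, and the AFP genes AFP1, AFP2 and AFP3, whose products bind ABI5. They were picked by gene identifier from the 33559 genes in the table (AT1G49720, AT1G45249, AT4G34000, AT3G19290, AT2G36270, AT2G46270, AT1G69260, AT1G13740 and AT3G29575, in the order above). The leaves came from Col-0 Arabidopsis plants aged 3 weeks and grown in soil, which received a spray of ABA, AMF1β or AMF4 at 10 μM, or of DMSO as the control. AMF1β and AMF4 are synthetic agonists of the ABA receptors derived from the agonist AM1, and AMF4 carries more fluorine atoms on its benzyl ring than AMF1β. Leaves were sampled 6, 24 or 72 h after the spray, which gives 12 groups and 29 libraries. At 6 h each group held 3 libraries. At 24 h ABA, AMF1β and DMSO held 3 libraries each and AMF4 held 2, and at 72 h AMF1β and AMF4 held 2 each while ABA and DMSO held 1 each. Replicates are described as biological duplicates, with no statement on separate pots or spray rounds, and the p-values therefore reflect only library-to-library spread, which may be technical.

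ABA is bound by the PYR/PYL receptors, which then inhibit the clade A protein phosphatases (PP2Cs) and so release the SnRK2 kinases. The kinases phosphorylate ABF transcription factors, which bind the ABA-responsive element (ABRE, with the core letters ACGTG) in the promoters of drought-induced genes. ABF2, ABF3 and ABF4 act in vegetative tissue under water deficit and overlap in function, and ABI5 is best known as the factor that arrests germination and early seedling growth. GBF3 belongs to another bZIP group and binds the G-box (CACGTG). The AFP proteins bind ABI5 and recruit TOPLESS corepressors, and they act as negative regulators of the ABA response.

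The values are FPKM, fragments scaled by transcript length and by the mapped fragments of the library, so levels can be compared between genes. Differences are given as the log2 fold change of FPKM + 1 with its standard error, from a limma model with one mean for each of the 12 groups. A gene was called when the Benjamini-Hochberg adjusted p, over 18521 genes with 1 FPKM or more in at least 2 libraries, was under 0.05 and the fold change was above 2 or below 0.5. All 9 genes passed that filter. ABI5 passed it only through the 6 h libraries: 0 of the 17 later libraries reached 1 FPKM, against 10 of the 12 at 6 h, and 9 of those 10 were treated. A gene kept through such libraries had to differ, so ABI5 is left out of the counts and medians given for the other 8 genes. Its tests are quoted from a fit of all 33559 genes with no filter. In bulk leaf RNA, fewer cells of a type and less RNA per cell cannot be told apart, nor can time after the spray and time of day, and each compound was compared with the same DMSO libraries.

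Relative depth, estimated from the smallest value increments within each library, spanned 0.432 to 1.96 times the median library. AMF4 6 h replicate 1 had the lowest depth and stood apart, with 21835 genes at 1 FPKM or more, against 16265 to 16872 in the other libraries. The leaf markers RBCS1A, LHCB1.1, RCA and GLK1 were present in every library, with a summed level of 9046 FPKM or more, and the sum of the seed markers OLE1, CRC, SESA1 and CRA1 stood at 2.89 FPKM in AMF4 6 h replicate 1 and at no more than 0.61 FPKM in any other library. Summed root markers stayed between 3.77 and 10.7 FPKM and flower markers between 0.31 and 1.53 FPKM. The guard cell markers KAT1, MYB60, FMA and GC1 summed at 6 h to 33.2 to 43.8 FPKM with ABA, 34.9 to 47.0 FPKM with AMF1β and 22.8 to 42.7 FPKM with AMF4, against 120.1 to 147 FPKM with DMSO, and the sum followed GC1. GC1 averaged 7.90 FPKM with ABA, 19.5 FPKM with AMF1β and 13.5 FPKM with AMF4, against 107 FPKM with DMSO, and was called lower with each. MYB60 was called lower with ABA (-1.03) and AMF1β (-1.40) and stood at -0.96 with AMF4. KAT1 averaged 20.9, 11.3 and 11.9 FPKM, against 10.003 FPKM with DMSO, with a log2 difference of 0.94 with ABA (adjusted p = 0.0355, under a fold of 2), and FMA was not called. None of the 4 guard cell markers was at 0 in any library, and RBCS1A (-1.05) and LHCB1.1 (-1.19) of the 4 leaf markers were called lower with AMF4 at 6 h. The part of guard cell or mesophyll RNA in the results was not tested. In DMSO at 6 h the clock gene LHY stood at 27.9, 10.6 and 0.436 FPKM, an uneven level among replicates. DMSO 6 h replicates 1 and 2, which had the higher LHY, were then left out. That fit holds 1 DMSO library at 6 h, replicate 3, which is assumed to vary like the other groups. Only its log2 fold changes are therefore given. With ABA, AMF1β and AMF4 they were 1.764, 1.728 and 2.147 for ABF3 and 1.926, 1.439 and 2.057 for GBF3. They were 3.969, 3.352 and 4.137 for AFP1 and 2.226, 1.485 and 1.943 for AFP3. For ABF2 with AMF4 the value was 1.301. The part of the uneven LHY level in the results was not tested.

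The windows before the genes are shown first because the ABRE is the element that ABF proteins bind. In the TAIR10.1 annotation the 9 genes lie on chromosomes 1 to 4, and the 300 bases before each annotated gene start were searched on both strands for ACGTG. The core was found before 8 of the 9 genes, against 25.6% of the 27443 promoters of the same length in the genome, and the G-box CACGTG, which contains the core on both strands, before 4 of the 9, against 7.09% of all promoters. AFP3 had 8 matches of the core, all of them in its 4 G-boxes, ABI5 had 7, GBF3 had 5, ABF1, AFP1 and AFP2 had 2 each, ABF3 and ABF4 had 1 each, and the window of ABF2 had 0. These counts describe letters and say nothing of binding. The 4 windows below belong to the genes that were called higher with each of the 3 compounds at 6 h. They were read 5′ to 3′ on the strand of the gene from the RefSeq copy of TAIR10.1, at chr3:11384146-11384445 (minus strand) for AFP3, chr2:18999880-19000179 (plus strand) for GBF3, chr1:26038605-26038904 (plus strand) for AFP1 and chr4:16295034-16295333 (plus strand) for ABF3. Capitals mark the core, as ACGTG where it lies on the strand of the gene, as CACGT where it lies on the other strand, and as CACGTG where both meet in a G-box.
AFP3: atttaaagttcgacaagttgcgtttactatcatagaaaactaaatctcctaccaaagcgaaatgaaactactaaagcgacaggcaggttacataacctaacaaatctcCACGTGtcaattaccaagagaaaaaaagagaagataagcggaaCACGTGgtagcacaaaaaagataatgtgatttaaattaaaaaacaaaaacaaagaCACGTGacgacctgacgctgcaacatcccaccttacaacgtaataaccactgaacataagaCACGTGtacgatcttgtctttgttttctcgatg
GBF3: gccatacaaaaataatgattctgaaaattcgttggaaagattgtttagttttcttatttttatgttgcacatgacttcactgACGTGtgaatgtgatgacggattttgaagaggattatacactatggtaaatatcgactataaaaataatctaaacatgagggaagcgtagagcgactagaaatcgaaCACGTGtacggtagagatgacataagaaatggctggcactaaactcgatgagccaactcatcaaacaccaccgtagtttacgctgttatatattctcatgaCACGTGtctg
AFP1: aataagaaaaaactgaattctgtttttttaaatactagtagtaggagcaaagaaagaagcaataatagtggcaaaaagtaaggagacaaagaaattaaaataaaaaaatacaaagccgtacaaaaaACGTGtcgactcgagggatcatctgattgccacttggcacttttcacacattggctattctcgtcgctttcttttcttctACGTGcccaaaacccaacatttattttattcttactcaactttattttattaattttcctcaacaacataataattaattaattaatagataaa
ABF3: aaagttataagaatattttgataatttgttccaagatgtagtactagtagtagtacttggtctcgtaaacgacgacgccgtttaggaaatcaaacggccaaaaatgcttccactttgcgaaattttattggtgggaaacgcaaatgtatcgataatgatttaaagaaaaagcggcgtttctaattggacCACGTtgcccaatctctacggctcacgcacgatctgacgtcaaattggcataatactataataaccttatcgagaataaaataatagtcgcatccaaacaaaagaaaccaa

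**Figure D1:**
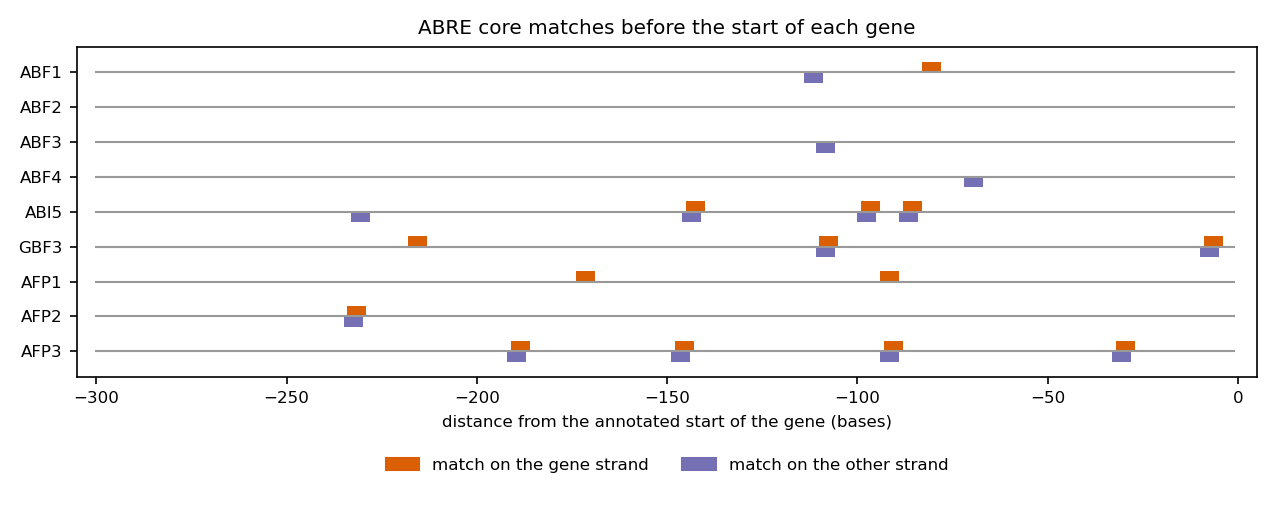
Each line is the 300 bases before the annotated start of a gene (x axis, distance from the start in bases), and boxes mark matches of the ABRE core above the line for the strand of the gene and below it for the other strand. AFP3 holds 8 matches in 4 pairs, and the line of ABF2 holds 0.

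At 6 h, ABF3, GBF3, AFP1 and AFP3 rose with each of the 3 compounds, and ABF2 and ABI5 rose with AMF4 as well. Of the 8 genes other than ABI5, 4 were called with ABA, where 3.71% of all genes tested were called higher, 4 with AMF1β, where it was 2.69%, and 5 with AMF4, where it was 4.21%. None was called lower, where 3.24% of all genes were with ABA, 3.28% with AMF1β and 4.35% with AMF4. The median log2 fold change of the 8 genes was 1.21 with ABA, 0.87 with AMF1β and 1.36 with AMF4, against 0.01, 0.05 and 0.09 over all genes tested.

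**Figure D2:**
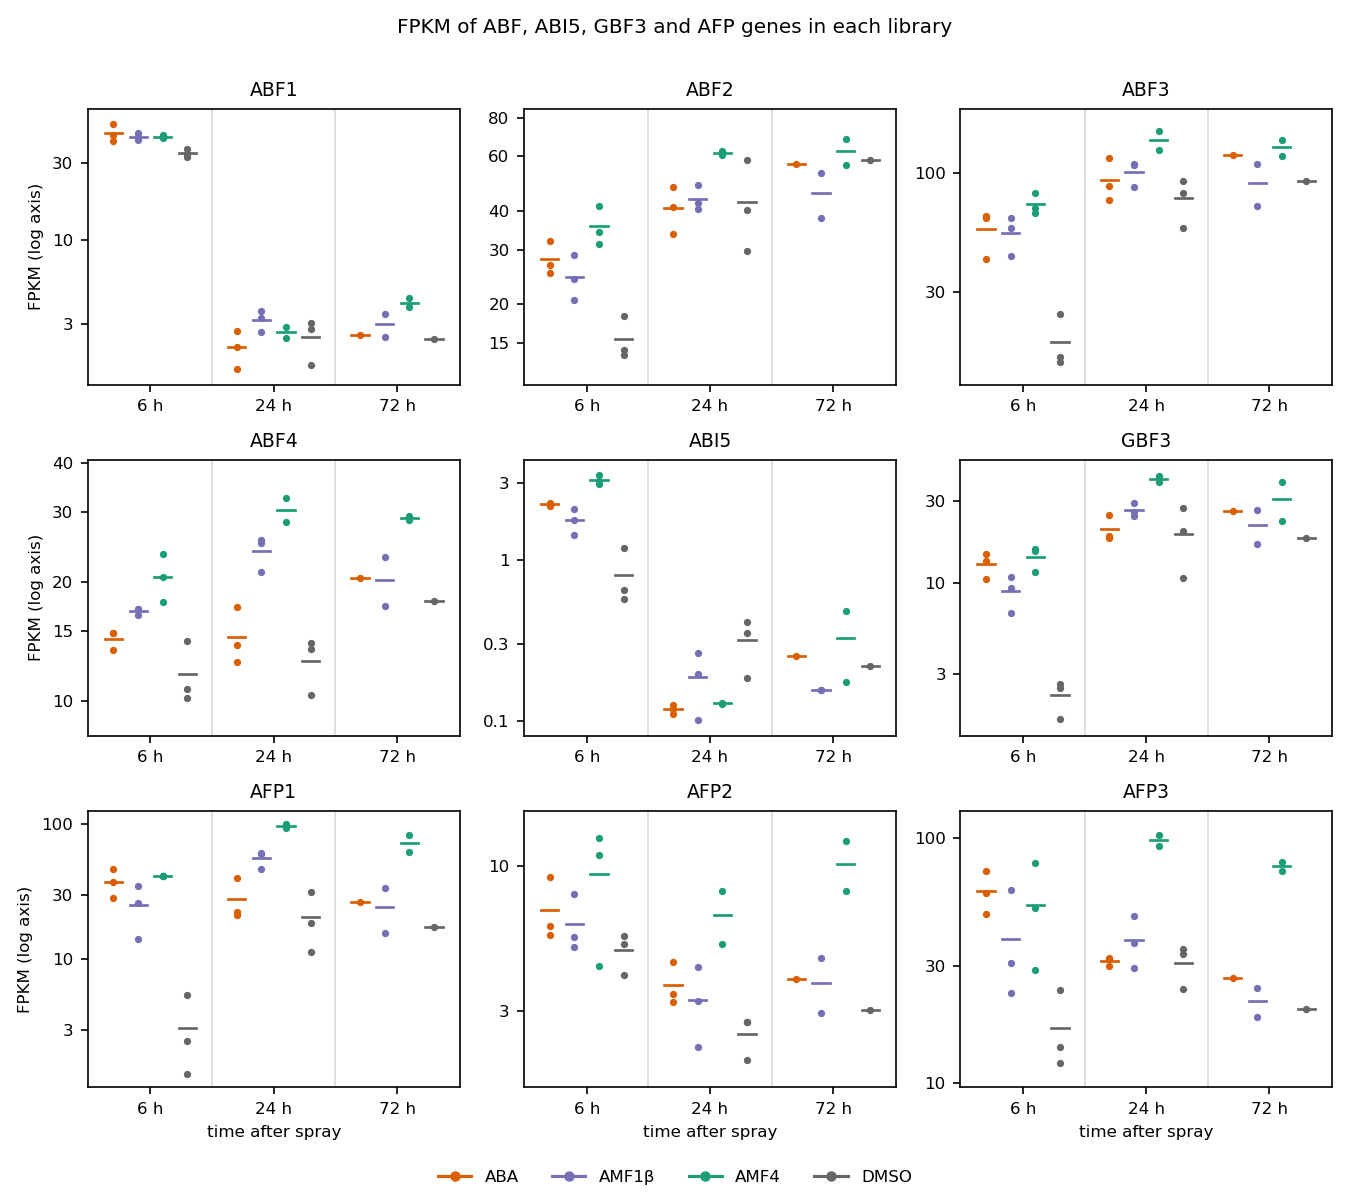
FPKM on a log axis for the 9 genes in each library, by time after the spray (points, libraries; bars, group means; ABA, AMF1β, AMF4 and DMSO from left to right at each time). At 6 h the DMSO libraries of ABF3, GBF3 and AFP1 lie below all treated libraries, and ABF1 and ABI5 are high at 6 h only.

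ABF3, a main factor of drought signalling in leaves, stood at 6 h at 41.7, 64.3 and 63.1 FPKM with ABA, 57.5, 63.1 and 43.4 FPKM with AMF1β and 70.2, 81.8 and 66.4 FPKM with AMF4, against 24.0, 14.8 and 15.6 FPKM with DMSO. All 9 treated libraries lay above the 3 DMSO libraries, and the group means were 3.11, 3.01 and 4.01 times that of DMSO. The log2 fold changes were 1.59 ± 0.23 (adjusted p = 5.89e-05) with ABA, 1.55 ± 0.23 (adjusted p = 0.000102) with AMF1β and 1.97 ± 0.23 (adjusted p = 6.16e-06) with AMF4 by limma. GBF3, the G-box binding factor, stood at 14.8, 10.6 and 13.4 FPKM with ABA, 9.44, 10.8 and 6.74 FPKM with AMF1β and 11.6, 15.8 and 15.3 FPKM with AMF4, against 2.49, 1.64 and 2.63 FPKM with DMSO. Again no treated library reached down to the DMSO range. Its log2 fold changes of 2.098 ± 0.26 (adjusted p = 1.19e-05) with ABA, 1.61 ± 0.26 (adjusted p = 0.000221) with AMF1β and 2.23 ± 0.26 (adjusted p = 6.62e-06) with AMF4 in the same model were the largest among the bZIP genes for each compound. The calls of ABF3 and GBF3 at 6 h were kept whichever library was left out.

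ABF2, a factor of the same clade as ABF3, was measured at 26.9, 25.3 and 32.0 FPKM with ABA, 24.2, 28.8 and 20.7 FPKM with AMF1β and 34.3, 41.4 and 31.2 FPKM with AMF4, against 18.4, 14.2 and 13.8 FPKM with DMSO. Every treated library lay above every DMSO library, but the change passed the fold threshold with AMF4 alone, at 1.16 ± 0.20 (adjusted p = 0.00029) by limma. With ABA it was 0.82 ± 0.20 (adjusted p = 0.00592) and with AMF1β 0.63 ± 0.20 (adjusted p = 0.0313), both under a fold of 2, and the differences between the compounds are given below. Without AMF4 6 h replicates 1 and 2, the 2 libraries with the most genes above 0, the AMF4 value of ABF2 was 0.98 (adjusted p = 0.0167), below the fold threshold. ABF4 moved less and stood at 14.8, 14.8 and 13.4 FPKM with ABA, 17.1, 16.5 and 17.0 FPKM with AMF1β and 17.8, 20.6 and 23.6 FPKM with AMF4, against 10.2, 10.7 and 14.2 FPKM with DMSO. Its log2 fold change was 0.29 ± 0.15 (adjusted p = 0.189) with ABA, 0.51 ± 0.15 (adjusted p = 0.0201) with AMF1β and 0.78 ± 0.15 (adjusted p = 0.000707) with AMF4, none of them past a fold of 2. Without AMF4 6 h replicate 1 and DMSO 6 h replicate 3 together, the AMF4 value reached 1.01 and was called (adjusted p = 0.000357).

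ABF1 was already high in DMSO leaves at 6 h, and stood at 52.6, 41.5 and 44.8 FPKM with ABA, 46.1, 42.0 and 43.6 FPKM with AMF1β and 43.8, 43.0 and 44.9 FPKM with AMF4, against 36.6, 32.9 and 34.3 FPKM with DMSO. Treated libraries lay above the DMSO libraries by a small margin. The log2 fold changes of 0.40 ± 0.15 (adjusted p = 0.0704), 0.34 ± 0.15 (adjusted p = 0.134) and 0.34 ± 0.15 (adjusted p = 0.104) with ABA, AMF1β and AMF4 did not pass the test by limma. ABI5 was the lowest of the 9 genes, at 2.25, 2.15 and 2.23 FPKM with ABA, 2.06, 1.43 and 1.77 FPKM with AMF1β and 2.97, 3.35 and 3.10 FPKM with AMF4, against 1.18, 0.572 and 0.650 FPKM with DMSO. Each treated library held more ABI5 than each DMSO library, and the AMF4 libraries were the highest. By limma with no filter the change was 0.85 ± 0.11 (adjusted p = 9.1e-05) with ABA, 0.62 ± 0.11 (adjusted p = 0.00151) with AMF1β and 1.21 ± 0.11 (adjusted p = 5.41e-06) with AMF4, and AMF4 alone passed the fold threshold. At these levels the added 1 FPKM holds the fold down. With the filter and 0.1 FPKM added in its place, the ABI5 change was 1.42 with ABA and 1.09 with AMF1β. ABI5 passed that filter only through 6 h libraries, so these values are a description and not counted as calls.

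AFP1, first described as a partner of ABI5 that promotes its breakdown, changed more than any other of the 9 genes at 6 h. It stood at 37.6, 28.3 and 46.6 FPKM with ABA, 26.3, 35.2 and 14.2 FPKM with AMF1β and 41.2, 41.7 and 41.3 FPKM with AMF4, against 5.43, 2.48 and 1.41 FPKM with DMSO. The lowest treated library, AMF1β replicate 3, was still above the highest DMSO library. The group means were 12.1 times the DMSO mean with ABA, 8.11 times with AMF1β and 13.3 times with AMF4. On the log2(FPKM + 1) scale the changes were 3.32 ± 0.38 (adjusted p = 3.89e-06), 2.70 ± 0.38 (adjusted p = 6.08e-05) and 3.49 ± 0.38 (adjusted p = 2.8e-06) by limma, and the calls were kept whichever library was left out.

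AFP3, a related corepressor adaptor, stood at 6 h at 49.2, 59.8 and 73.6 FPKM with ABA, 30.9, 61.6 and 23.4 FPKM with AMF1β and 79.1, 51.7 and 28.9 FPKM with AMF4, against 24.1, 14.1 and 12.05 FPKM with DMSO. The ABA libraries were the most even of the treated groups, and AMF1β replicate 3 lay within the DMSO range. The log2 fold change was 1.84 ± 0.33 (adjusted p = 0.000433) with ABA, 1.102 ± 0.33 (adjusted p = 0.0215) with AMF1β and 1.56 ± 0.33 (adjusted p = 0.00147) with AMF4 by limma. The AMF1β call did not hold once low values were no longer filtered (adjusted p = 0.0582), with a fit to the 6 h libraries only (adjusted p = 0.0836) or without AMF4 6 h replicate 1 and DMSO 6 h replicate 3 together (0.91, adjusted p = 0.065). Nor did it hold without AMF1β 6 h replicate 2 (0.71, adjusted p = 0.139), DMSO 6 h replicate 2 (1.01, adjusted p = 0.0733) or DMSO 6 h replicate 3 (0.91, adjusted p = 0.0966), and the AMF4 call did not hold without AMF4 6 h replicates 1 and 2 together (0.81, adjusted p = 0.142). AFP2, which stood at 5.63, 6.08 and 9.07 FPKM with ABA, 5.08, 7.93 and 5.52 FPKM with AMF1β and 12.6, 10.9 and 4.34 FPKM with AMF4, against 5.60, 5.197 and 4.04 FPKM with DMSO, was not called with any compound at 6 h. AMF4 replicate 3 was low against the other AMF4 libraries and lay within the DMSO range. The changes of AFP2 were 0.40 ± 0.29 (adjusted p = 0.363) with ABA, 0.26 ± 0.29 (adjusted p = 0.577) with AMF1β and 0.69 ± 0.29 (adjusted p = 0.0743) with AMF4, and without AMF4 6 h replicate 3 the last was 1.11 and called (adjusted p = 0.00378).

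At 24 h with ABA, 0 of the 9 genes were called, where 0.232% of all genes were called higher and 0.491% lower. An unadjusted p under 0.05 by limma was found for 0 of the 8 genes other than ABI5, and for 13.9% of all genes. With AMF1β, AFP1 alone was called higher, 1 of the 8, where 1.05% of all genes were, and 0 were called lower, where 0.794% were. With AMF4, ABF4, GBF3, AFP1, AFP2 and AFP3 were called higher, 5 of the 8, where 2.12% of all genes were, and 0 were called lower, where 2.36% were. The median log2 fold change of the 8 genes was 0.18 with ABA, 0.35 with AMF1β and 1.11 with AMF4, against -0.02, -0.01 and -0.01 over all genes. Guard cell markers at this time summed to 37.9 to 48.2 FPKM with ABA and 25.4 to 32.7 FPKM with AMF1β. They summed to 15.6 to 15.6 FPKM with AMF4 and 64.2 to 91.4 FPKM with DMSO. The sum mostly followed GC1, which averaged 19.0, 10.8 and 2.18 FPKM with ABA, AMF1β and AMF4, against 46.4 FPKM with DMSO. In the same order MYB60 averaged 9.72, 3.65 and 1.75 FPKM, against 13.3 FPKM. KAT1 averaged 7.39, 7.14 and 5.62 FPKM, against 9.87 FPKM. FMA averaged 7.08, 6.37 and 6.06 FPKM, against 7.08 FPKM. The part of guard cell RNA in these results was not tested.

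**Figure D3:**
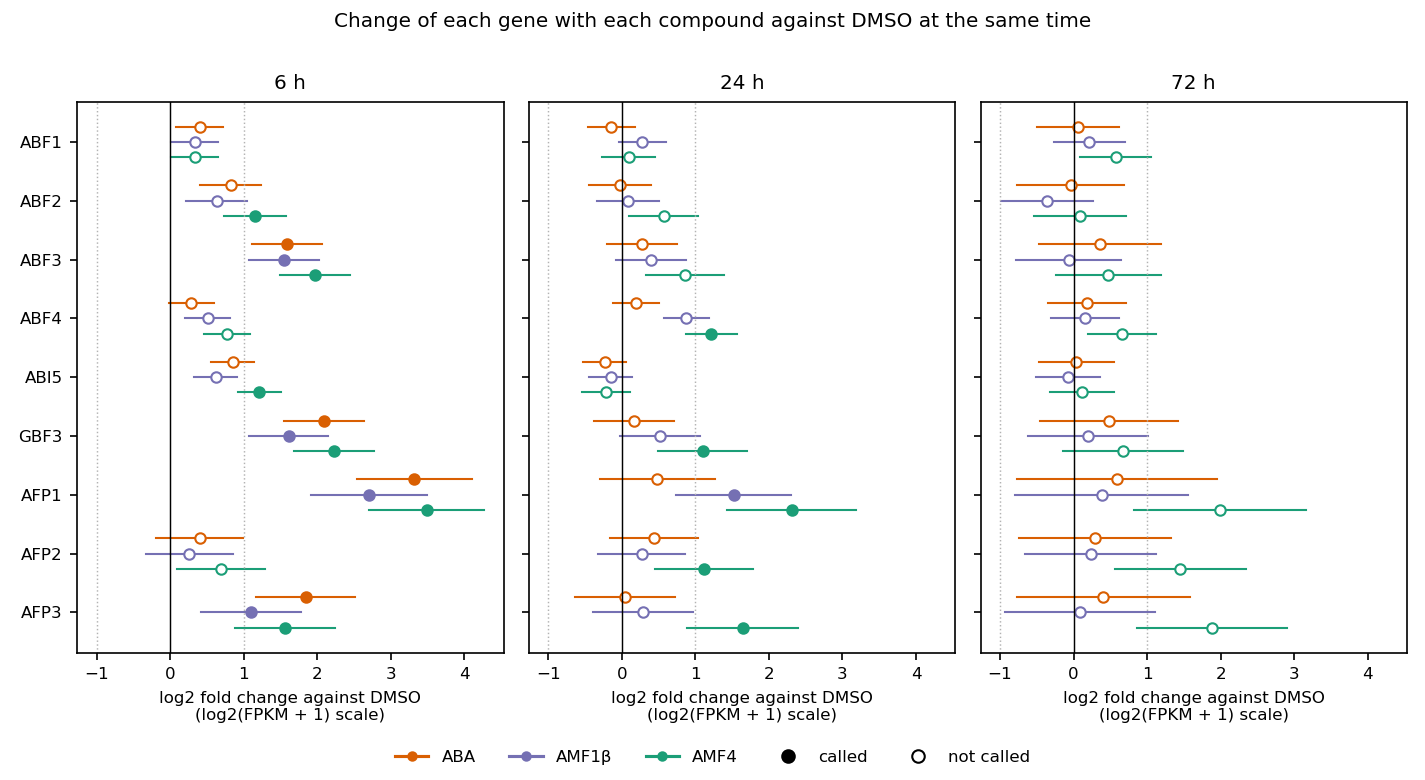
Log2 fold change of each gene against DMSO (x axis, log2(FPKM + 1) scale) at 6, 24 and 72 h for ABA, AMF1β and AMF4, with 95% intervals from limma and filled points for calls. At 6 h all 3 compounds share 4 called genes, at 24 h AMF4 has 5 called genes and ABA has 0, and at 72 h there are 0 calls. ABI5 points come from the fit with the filter, which ABI5 passed only through 6 h libraries, and are a description.

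AFP1 at 24 h stood at 21.4, 39.8 and 22.4 FPKM with ABA, 60.7, 61.3 and 47.1 FPKM with AMF1β and 101 and 94.4 FPKM with AMF4, against 18.7, 31.3 and 11.3 FPKM with DMSO. The AMF1β and AMF4 libraries lay above all DMSO libraries, and the ABA libraries overlapped with them. Its log2 fold change was 0.48 ± 0.38 (adjusted p = 0.616) with ABA, 1.52 ± 0.38 (adjusted p = 0.0249) with AMF1β and 2.31 ± 0.42 (adjusted p = 0.00148) with AMF4 by limma. The AMF4 call was kept whichever library was left out. The AMF1β call was lost without AMF1β 24 h replicate 1 (adjusted p = 0.0915), AMF1β 24 h replicate 2 (adjusted p = 0.0561), DMSO 24 h replicate 1 (adjusted p = 0.0592) or DMSO 24 h replicate 3 (adjusted p = 0.118).

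AFP3 at 24 h was at 30.1, 32.4 and 32.0 FPKM with ABA, 37.4, 47.9 and 29.5 FPKM with AMF1β and 103 and 92.5 FPKM with AMF4, against 33.5, 35.2 and 24.2 FPKM with DMSO. Both AMF4 libraries were far above the rest, while ABA, AMF1β and DMSO overlapped. The change with AMF4 was 1.64 ± 0.36 (adjusted p = 0.0065) by limma, which rests on 2 libraries. With AMF4 24 h replicate 1 removed the adjusted p was 0.0825, and with AMF4 24 h replicate 2 removed it was 0.059, so the call needed both. With ABA it was 0.04 ± 0.33 (adjusted p = 0.983) and with AMF1β 0.29 ± 0.33 (adjusted p = 0.643). AFP2, at 4.47, 3.45 and 3.23 FPKM with ABA, 3.26, 4.32 and 2.22 FPKM with AMF1β and 8.08 and 5.23 FPKM with AMF4, against 1.99, 2.74 and 2.72 FPKM with DMSO, was called with AMF4 at 1.12 ± 0.32 (adjusted p = 0.0313), and both AMF4 libraries lay above all DMSO libraries. That call was lost without any one of the 5 libraries compared, with an adjusted p of 0.32 without AMF4 24 h replicate 1, 0.0741 without AMF4 24 h replicate 2, 0.0888 without DMSO 24 h replicate 1, 0.0526 without DMSO 24 h replicate 2 and 0.0517 without DMSO 24 h replicate 3.

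ABF4, a factor that had moved little at 6 h, stood at 24 h at 13.9, 17.2 and 12.5 FPKM with ABA, 25.5, 21.2 and 25.1 FPKM with AMF1β and 28.4 and 32.7 FPKM with AMF4, against 14.0, 13.5 and 10.3 FPKM with DMSO. All AMF1β and AMF4 libraries lay above all ABA and DMSO libraries. The log2 fold change was 0.19 ± 0.15 (adjusted p = 0.618) with ABA, 0.88 ± 0.15 (adjusted p = 0.00238) with AMF1β, which passed the test but not the fold threshold, and 1.22 ± 0.17 (adjusted p = 9.43e-05) with AMF4, a call kept whichever library was left out. GBF3 stood at 18.2, 25.0 and 18.9 FPKM with ABA, 29.03, 24.6 and 25.9 FPKM with AMF1β and 38.5 and 41.4 FPKM with AMF4, against 19.98, 27.4 and 10.8 FPKM with DMSO. The DMSO libraries were uneven, and the AMF4 libraries lay above all others. The change with AMF4 was 1.098 ± 0.29 (adjusted p = 0.0211), and this call was lost on removal of 1 of 3 libraries, with an adjusted p of 0.114 for AMF4 24 h replicate 1, 0.163 for AMF4 24 h replicate 2 and 0.0945 for DMSO 24 h replicate 3.

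ABF3 and ABF2 were not called at 24 h. ABF3 stood at 75.8, 116 and 87.6 FPKM with ABA, 86.4, 109 and 107 FPKM with AMF1β and 126 and 152 FPKM with AMF4, against 81.8, 92.1 and 57.4 FPKM with DMSO. Here the DMSO level had come up to that of the treated leaves, and the AMF4 libraries alone lay above all DMSO libraries. The AMF4 change was 0.86 ± 0.26 (adjusted p = 0.0378), under a fold of 2, and without DMSO 24 h replicate 2 it was 1.00 and called (adjusted p = 0.0324). ABF2, at 41.1, 47.9 and 33.7 FPKM with ABA, 42.6, 40.5 and 48.4 FPKM with AMF1β and 62.5 and 60.7 FPKM with AMF4, against 40.3, 58.3 and 29.8 FPKM with DMSO, changed by 0.57 ± 0.22 (adjusted p = 0.125) with AMF4. ABF1 and ABI5 were low in every 24 h library. ABF1 ranged over 2.71, 1.56 and 2.13 FPKM with ABA, 3.59, 2.66 and 3.25 FPKM with AMF1β and 2.43 and 2.87 FPKM with AMF4, against 3.00, 1.65 and 2.77 FPKM with DMSO. ABI5 was at 0.126, 0.119 and 0.110 FPKM with ABA, 0.193, 0.1004 and 0.263 FPKM with AMF1β and 0.128 and 0.129 FPKM with AMF4, against 0.352, 0.413 and 0.184 FPKM with DMSO, a level at which all libraries are under 1 FPKM.

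At 72 h, where ABA and DMSO had 1 library each, no gene of the 9 was called with any compound. Of all genes 0%, 0.0108% and 1.12% were called higher and 0%, 0% and 0.427% lower with ABA, AMF1β and AMF4. An unadjusted p under 0.05 by limma was found for 0, 0 and 5 of the 8 genes other than ABI5, and for 1.82%, 4.13% and 14% of all genes. The tests assume that the single libraries vary like the other groups. The AFP genes with AMF4 came closest. AFP3 stood at 26.8 FPKM with ABA, 24.5 and 18.6 FPKM with AMF1β and 79.9 and 73.4 FPKM with AMF4, against 20.01 FPKM with DMSO. AFP1 was at 26.7 FPKM with ABA, 33.5 and 15.6 FPKM with AMF1β and 62.2 and 83.6 FPKM with AMF4, against 17.4 FPKM with DMSO. AFP2 was at 3.90 FPKM with ABA, 4.62 and 2.94 FPKM with AMF1β and 12.2 and 8.09 FPKM with AMF4, against 3.01 FPKM with DMSO. In each of these genes both AMF4 libraries were above every other 72 h library, and the share of all genes where this holds was not counted. The log2 fold changes with AMF4 were 1.88 ± 0.49 (adjusted p = 0.052) for AFP3, 1.99 ± 0.56 (adjusted p = 0.076) for AFP1 and 1.45 ± 0.43 (adjusted p = 0.0923) for AFP2 by limma, so that the intervals of 0.87 to 2.90, 0.82 to 3.17 and 0.56 to 2.35 did not reach 0 before adjustment. Leaving out either AMF4 library gave 0 calls as well. AFP3 with AMF4 was called with a replicate block (1.90, adjusted p = 0.0376) and with median-of-ratios scaling (1.91, adjusted p = 0.0454). With the DMSO libraries of 24 and 72 h pooled as the control, ABF4, AFP1, AFP2 and AFP3 were called with AMF4. That control held 3 libraries of 24 h and 1 of 72 h, so a difference between these times enters it. The share of all genes called with it was not counted.

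The bZIP genes at 72 h lay closer together. ABF4 stood at 20.5 FPKM with ABA, 23.1 and 17.4 FPKM with AMF1β and 28.7 and 29.3 FPKM with AMF4, against 17.9 FPKM with DMSO, and with AMF4 its change was 0.66 ± 0.22 (adjusted p = 0.148). ABF3 was at 119 FPKM with ABA, 109 and 71.3 FPKM with AMF1β and 118 and 139 FPKM with AMF4, against 92.3 FPKM with DMSO, and GBF3 was at 26.04 FPKM with ABA, 26.5 and 16.9 FPKM with AMF1β and 23.0 and 38.8 FPKM with AMF4, against 18.4 FPKM with DMSO. For both genes AMF1β and DMSO overlapped, and the AMF4 changes were 0.47 ± 0.34 (adjusted p = 0.584) and 0.67 ± 0.39 (adjusted p = 0.469). ABF2 was at 56.7 FPKM with ABA, 53.2 and 38.0 FPKM with AMF1β and 56.1 and 68.5 FPKM with AMF4, against 58.3 FPKM with DMSO. ABF1 stayed low at 2.54 FPKM with ABA, 3.45 and 2.48 FPKM with AMF1β and 3.79 and 4.32 FPKM with AMF4, against 2.39 FPKM with DMSO, with an AMF4 change of 0.57 ± 0.23 (adjusted p = 0.251). ABI5 was again under 1 FPKM, at 0.253 FPKM with ABA, 0.155 and 0.156 FPKM with AMF1β and 0.173 and 0.483 FPKM with AMF4, against 0.219 FPKM with DMSO.

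AMF1β and AMF4, which differ in the number of fluorine atoms on the benzyl ring, were compared directly at each time, and 0 of the 9 genes were called between them at 6, 24 or 72 h. At 6 h and at 24 h 0% of all genes were called higher or lower with AMF4 than with AMF1β, and at 72 h 0.0378% were higher and 0.0162% lower. An unadjusted p under 0.05 by limma was found for 3 of the 8 genes other than ABI5 at 6 h, 3 at 24 h and 4 at 72 h, and for 7.33%, 6.34% and 11.8% of all genes. The median AMF4 minus AMF1β difference of the 8 genes was 0.44, 0.53 and 0.52 on the log2 scale, and over all genes it was 0.02, 0.00 and 0.01. The intervals do not exclude sizeable differences. For AFP3 the difference was 0.46 (-0.22 to 1.13) at 6 h, 1.36 (0.60 to 2.11) at 24 h and 1.80 (0.97 to 2.62) at 72 h, with adjusted p of 0.77, 0.308 and 0.0963. For AFP1 it was 0.78 (0.00 to 1.57), 0.79 (-0.09 to 1.67) and 1.61 (0.65 to 2.57) at the same times. For ABI5 at 6 h it was 0.59 ± 0.11 (adjusted p = 0.143) with no filter.

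AMF4 differed from ABA in 3 of the 8 genes other than ABI5 at 24 h, all of them higher with AMF4, where 1.38% of all genes were called higher and 0.745% lower. ABF4 was higher by 1.03 ± 0.17 (adjusted p = 0.00174), AFP1 by 1.83 ± 0.42 (adjusted p = 0.0172) and AFP3 by 1.60 ± 0.36 (adjusted p = 0.0157) by limma. In each gene both AMF4 libraries lay above the 3 ABA libraries, and the share of all genes where this holds was not counted. None of these calls was kept whichever library was left out. ABF4 fell to 0.93 without ABA 24 h replicate 3 and 0.93 without AMF4 24 h replicate 2, both under the fold threshold. For AFP1 the adjusted p was 0.0594 without ABA 24 h replicate 1, 0.0769 without ABA 24 h replicate 3, 0.174 without AMF4 24 h replicate 1 and 0.133 without AMF4 24 h replicate 2. For AFP3 it was 0.0533 without ABA 24 h replicate 3, 0.178 without AMF4 24 h replicate 1 and 0.12 without AMF4 24 h replicate 2.

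At 6 h AMF4 and ABA did not differ in any call of these genes, where 0.302% of all genes were called higher and 0.205% lower. An unadjusted p under 0.05 by limma was found for 1 of the 8 genes and 20.4% of all genes. The AMF4 minus ABA interval at 6 h was -0.09 to 0.86 for ABF3, -0.41 to 0.67 for GBF3, -0.61 to 0.95 for AFP1 and -0.96 to 0.39 for AFP3. At 72 h 0 of the 9 were called, where 0.486% of all genes were called higher and 0.14% lower, and an unadjusted p under 0.05 was found for 5 of the 8 genes and 14.5% of all genes by limma. AMF1β against ABA gave 0 calls among the 9 genes at 6, 24 and 72 h, where 0.103%, 1.3% and 0% of all genes were called higher and 0.265%, 0.151% and 0% lower. At an unadjusted p under 0.05 by limma there were 1, 3 and 0 of the 8 genes, and 11.2%, 19.3% and 3.3% of all genes. ABF4 at 24 h came closest, with 0.69 ± 0.15 (adjusted p = 0.0149), under a fold of 2.

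On the log2(FPKM + 1) scale the largest difference of any of the 9 genes was that of ABF1 between times, and it was lower at 24 h with every treatment, DMSO included. ABF1 ran from 1.56 to 4.32 FPKM with a median of 2.71 over the 17 later libraries, against 32.9 to 52.6 FPKM with a median of 43.3 over the 12 libraries at 6 h. The ranges lie far apart. The log2 difference of 24 h minus 6 h was -3.92 ± 0.15 (adjusted p = 3.18e-13) with ABA, -3.44 ± 0.15 (adjusted p = 4.43e-12) with AMF1β, -3.62 ± 0.17 (adjusted p = 9.84e-12) with AMF4 and -3.38 ± 0.15 (adjusted p = 3.46e-12) with DMSO by limma. ABI5 ran from 0.1 to 0.483 FPKM over the later libraries, against 0.572 to 3.35 FPKM at 6 h. By the ratio of mean FPKM, 24 h was 21.7-fold lower than 6 h for ABF1 with ABA, its largest ratio, and 24.5-fold lower for ABI5 with AMF4. The log2 difference of ABI5 with no filter was -1.52 ± 0.11 (adjusted p = 1.7e-08) with ABA, -1.21 ± 0.11 (adjusted p = 3.28e-07) with AMF1β, -1.87 ± 0.12 (adjusted p = 6.51e-09) with AMF4 and -0.44 ± 0.11 (adjusted p = 0.00689) with DMSO by limma, the last not past a fold of 2 on this scale. With the filter and 0.1 FPKM added, the DMSO difference of ABI5 was -1.10. It is a description only, because ABI5 passed the filter only through 6 h libraries.

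**Figure D4:**
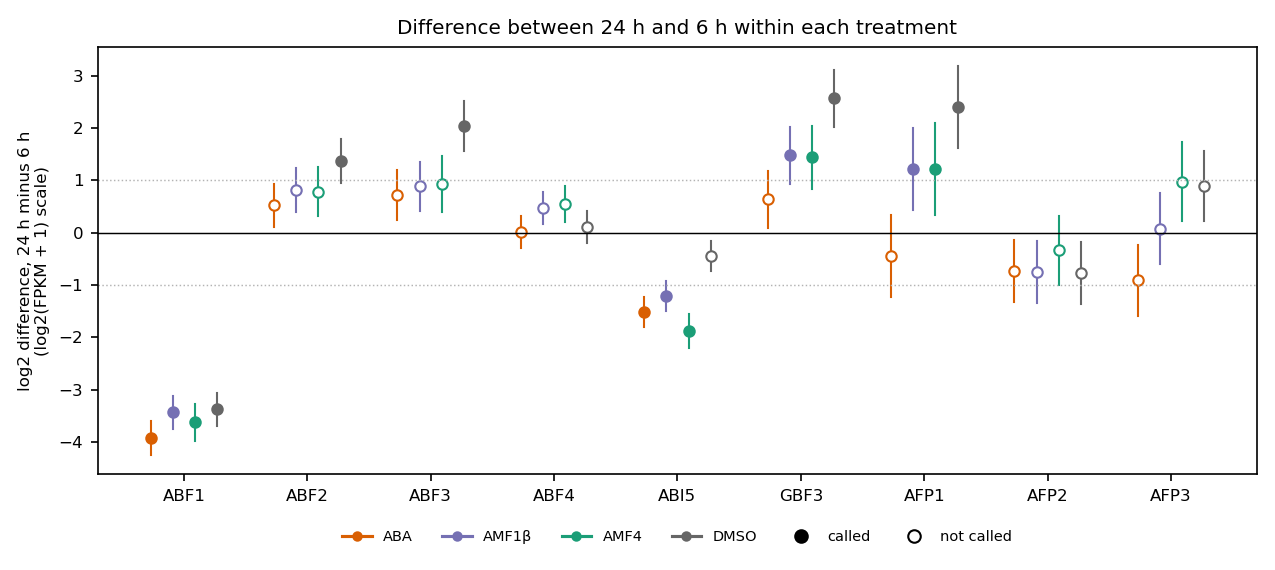
Log2 difference of 24 h minus 6 h (y axis, log2(FPKM + 1) scale) for each gene within ABA, AMF1β, AMF4 and DMSO, with 95% intervals and filled points for calls. ABF1 is lower at 24 h in all 4 treatments, while ABF2, ABF3, GBF3 and AFP1 are highest above 0 with DMSO. ABI5 points come from the fit with the filter, which ABI5 passed only through 6 h libraries, and are a description.

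In DMSO leaves 4 of the 8 genes other than ABI5 were higher at 24 h than at 6 h, where 7.9% of all genes were, and 1, ABF1, was lower, where 6.67% were. ABF3 stood at 81.8, 92.1 and 57.4 FPKM at 24 h, against 24.0, 14.8 and 15.6 FPKM at 6 h, and GBF3 at 19.98, 27.4 and 10.8 FPKM, against 2.49, 1.64 and 2.63 FPKM. The libraries of the times did not overlap in ABF3 or GBF3, and the share of all genes where this holds was not counted. The differences were 2.03 ± 0.23 (adjusted p = 6.79e-07) for ABF3, 2.57 ± 0.26 (adjusted p = 1.74e-07) for GBF3, 1.37 ± 0.20 (adjusted p = 1.91e-05) for ABF2 and 2.39 ± 0.38 (adjusted p = 4.23e-05) for AFP1, and all 4 were kept whichever library was left out. AFP3 was at 0.89 ± 0.33 (adjusted p = 0.0355), under a fold of 2, and was called without DMSO 6 h replicate 1 (1.17, adjusted p = 0.013) or DMSO 24 h replicate 3 (1.05, adjusted p = 0.0273).

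With ABA 0 of the 8 genes were higher and 1, ABF1, was lower at 24 h, where 5.94% of all genes were higher and 6.89% lower. AFP3 with ABA was at -0.91 ± 0.33 (adjusted p = 0.038), and without ABA 6 h replicate 1 it was -1.05 and called lower (adjusted p = 0.0396). With AMF1β, GBF3 and AFP1 were higher and ABF1 lower, 2 and 1 of the 8, where 5.63% and 5.7% of all genes were. With AMF4 the same 3 genes were called in the same directions, where 6.28% of all genes were higher and 7.62% lower. GBF3 was at 1.48 ± 0.26 (adjusted p = 0.000185) with AMF1β and 1.44 ± 0.29 (adjusted p = 0.000723) with AMF4, and AFP1 at 1.21 ± 0.38 (adjusted p = 0.0196) and 1.21 ± 0.42 (adjusted p = 0.0326) by limma.

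The AFP1 call with AMF1β was lost without AMF1β 6 h replicate 3 (0.86, adjusted p = 0.13), AMF1β 24 h replicate 1 (adjusted p = 0.0639) or AMF1β 24 h replicate 2 (adjusted p = 0.058). With AMF4 the AFP1 call was lost without any one of its 5 libraries, with an adjusted p of 0.0619, 0.0616 and 0.0531 without AMF4 6 h replicates 1, 2 and 3 and of 0.152 and 0.112 without AMF4 24 h replicates 1 and 2. ABF3 with AMF4, at 0.92 ± 0.26 (adjusted p = 0.00883), was called without AMF4 6 h replicate 2 (1.01) or AMF4 24 h replicate 1 (1.06), and AFP3, at 0.98 ± 0.36 (adjusted p = 0.0458), without AMF4 6 h replicate 1 (1.31, adjusted p = 0.0101).

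Clock genes moved with time in the same libraries. LHY, a morning factor of the circadian clock, was at 105.3 to 294 FPKM in the later libraries, against 0.433 to 27.9 FPKM at 6 h. TOC1, an evening factor, was at 1.33 to 4.58 FPKM later, against 24.2 to 50.4 FPKM at 6 h. The ranges of either gene at 6 h and later did not overlap, which is also true of ABF1 and ABI5. The share of all genes with ranges apart in this way was not counted. An unadjusted p under 0.05 by limma for 24 h against 6 h was found for 38.9% to 46.7% of all genes over the 4 treatments. ABI5 passed the filter only through 6 h libraries, so its separation is a description. The part of the clock in the levels of ABF1 and ABI5 was not tested. At 6 h LHY was called lower with each compound (-2.32 with ABA), while DMSO 6 h replicate 3 was within the range of the treated libraries.

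**Figure D5:**
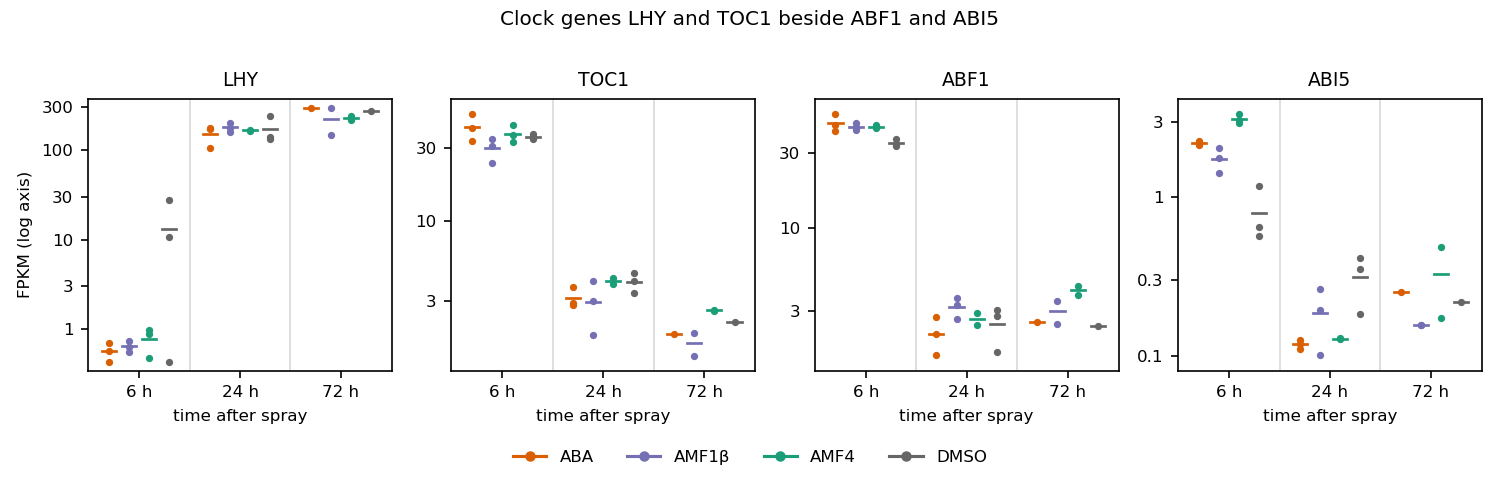
FPKM on a log axis of the clock genes LHY and TOC1 and of ABF1 and ABI5 in each library, by time and treatment (points, libraries; bars, group means). TOC1, ABF1 and ABI5 are high at 6 h and low later, LHY the reverse, and DMSO at 6 h is uneven for LHY.

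The change of a treatment difference between 6 and 24 h was tested in the same model as an interaction. For ABA against DMSO, 4 of the 8 genes other than ABI5 had a smaller ABA difference at 24 h than at 6 h, where 2.99% of all genes did, and 0 had a larger one, where 2.26% did. The interaction was -1.32 ± 0.32 (adjusted p = 0.0157) for ABF3, -1.93 ± 0.37 (adjusted p = 0.00371) for GBF3, -2.84 ± 0.53 (adjusted p = 0.00342) for AFP1 and -1.80 ± 0.46 (adjusted p = 0.0194) for AFP3 by limma, and with no filter it was -1.08 ± 0.15 (adjusted p = 0.00274) for ABI5. GBF3 and AFP1 were kept whichever of the 12 libraries was left out. ABF3 and AFP3 were lost without ABA 6 h replicate 3 (adjusted p = 0.0505 and 0.0598) or DMSO 24 h replicate 2 (adjusted p = 0.051 and 0.0538), and ABI5 fell under the fold threshold without DMSO 6 h replicate 2 (-0.99). Without DMSO 24 h replicate 3, ABF2 was called as well (-1.08, adjusted p = 0.0128).

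For AMF4 against DMSO the interaction was called for ABF3, at -1.11 ± 0.34 (adjusted p = 0.0482), 1 of the 8 genes, where 2.81% of all genes were called lower, and 0 were called higher, where 3.16% were. With no filter it was -1.43 ± 0.16 (adjusted p = 0.000947) for ABI5, while ABF3 was not called (adjusted p = 0.102). ABF3 depended on 8 of the 11 libraries. Its adjusted p was 0.0564 and 0.0949 when AMF4 6 h replicate 1 or 2 was removed, 0.204 and 0.0896 for AMF4 24 h replicates 1 and 2, 0.106 and 0.0928 for DMSO 6 h replicates 2 and 3, and 0.0808 and 0.134 for DMSO 24 h replicates 1 and 2. Without DMSO 24 h replicate 3, GBF3 was called too (-1.48, adjusted p = 0.0084). For AMF1β against DMSO 0 of the 9 genes were called, where 0.842% of all genes were higher and 0.4% lower. An unadjusted p under 0.05 by limma was found for 3 of the 8 genes and 14.5% of all genes. Without DMSO 24 h replicate 3, ABF3 (-1.35) and GBF3 (-1.44) were called, and without DMSO 6 h replicate 1, ABF3 (-1.36).

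Between compounds, the difference of AMF4 from ABA in AFP3 was larger at 24 h than at 6 h, with an interaction of 1.89 ± 0.49 (adjusted p = 0.0411), 1 of the 8 genes, where 1.32% of all genes were called higher and 1.14% lower. At 6 h AFP3 stood at 79.1, 51.7 and 28.9 FPKM with AMF4 and 49.2, 59.8 and 73.6 FPKM with ABA, and at 24 h at 103 and 92.5 FPKM with AMF4 and 30.1, 32.4 and 32.0 FPKM with ABA. The compounds overlapped at 6 h and not at 24 h. The call was lost without any one of 9 of the 11 libraries, with an adjusted p of 0.0654 and 0.0538 without AMF4 6 h replicates 2 and 3, 0.206 and 0.102 without AMF4 24 h replicates 1 and 2, 0.0668 and 0.103 without ABA 6 h replicates 1 and 3, and 0.0722, 0.0689 and 0.0728 without ABA 24 h replicates 1, 2 and 3. For AMF1β against ABA 0 of the 9 genes were called, where 0.956% of all genes were higher and 0.151% lower, and an unadjusted p under 0.05 by limma was found for 5 of the 8 and 12.6% of all genes. For AMF4 against AMF1β it was 0 of the 9 genes and 0% of all genes, with 0 of the 8 and 5.67% of all genes at an unadjusted p under 0.05.

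Over the 12 group means, ABF3 had the highest level among the bZIP genes, 139 FPKM with AMF4 at 24 h, and its lowest mean was 18.2 FPKM with DMSO at 6 h. AMF4 at 24 h and at 72 h held the first and second rank for ABF3, ABF4, GBF3, AFP1 and AFP3, and the ranges of the libraries of these groups overlapped in ABF3, ABF4 and GBF3. The AMF4 72 h libraries also overlapped with the third group in ABF3 (ABA at 72 h), GBF3 (AMF1β at 24 h) and AFP3 (ABA at 6 h). For ABF2 AMF4 ranked first at 72 h and second at 24 h. There DMSO at 72 h, at 58.3 FPKM, lay within the AMF4 72 h range of 56.1 to 68.5 FPKM. AFP1 averaged 97.5 FPKM with AMF4 at 24 h and 72.9 FPKM at 72 h, and AFP3 97.8 and 76.6 FPKM. DMSO at 6 h was the lowest of the 12 groups for ABF2, ABF3, ABF4, GBF3, AFP1 and AFP3. In ABF4 and AFP3 its range overlapped with that of the next group, DMSO at 24 h for ABF4 and at 72 h for AFP3, and in ABF2, ABF3, GBF3 and AFP1 it lay below the next group. For ABF1 and ABI5 the 4 groups of 6 h held the first 4 ranks, with DMSO last among them.

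Of the clade A PP2C genes 7 of 9 were tested, and at 6 h 6 rose with ABA, 6 with AMF1β and 7 with AMF4, led by HAI1 at 4.06 ± 0.42 (adjusted p = 1.41e-06) with ABA and HAI2 at 3.60 ± 0.30 (adjusted p = 2.8e-07) with AMF4 by limma. Of the known ABRE-driven target genes 11 of 12 were tested, and 10, 10 and 11 rose at 6 h, among them the late embryogenesis gene LEA7, at 5.51 ± 0.47 (adjusted p = 2.8e-07) with AMF4, and RD29B, at 4.80 ± 0.44 (adjusted p = 3.82e-07) with ABA. At 24 h the number that rose was 1 PP2C and 4 targets with ABA, 3 and 4 with AMF1β, and 4 and 7 with AMF4, and at 72 h it was 0 and 0, 0 and 0, and 1 and 3. Of all genes tested 3.71%, 2.69% and 4.21% were called higher at 6 h with ABA, AMF1β and AMF4. It was 0.232%, 1.05% and 2.12% at 24 h, and 0%, 0.0108% and 1.12% at 72 h. None of the PP2C and target genes was called lower against DMSO, where at most 4.35% of all genes were. The median log2 fold change of the targets at 24 h was 0.88 with ABA, 1.17 with AMF1β and 2.42 with AMF4. Over all genes tested it was -0.02, -0.01 and -0.01.

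A further 17 genes were tested, made up of other group A and group G bZIP genes, AFP-related genes and TOPLESS corepressors, which are partners of the AFP proteins. At 6 h, 0 of the 17 rose with ABA, 1 with AMF1β and 3 with AMF4, where 3.71%, 2.69% and 4.21% of all genes did. Against DMSO at 24 or 72 h, 0 of the 17 were called. Of 5 tested group A bZIP genes, FD, a partner of the flowering signal, rose with AMF4 at 6 h, at 1.19 ± 0.33 (adjusted p = 0.0106), and 0 were called with ABA or AMF1β. Of 4 other group G bZIP genes, GBF2 rose with AMF1β and AMF4 at 6 h, at 1.58 ± 0.20 (adjusted p = 1.42e-05) with AMF4. Of 8 AFP-related and TOPLESS corepressor genes, TMAC2 alone rose, with AMF4 at 6 h, at 1.14 ± 0.23 (adjusted p = 0.00127). TMAC2 stood at 2.52, 1.80 and 1.06 FPKM with AMF4, against 0.441, 0.216 and 0.0746 FPKM with DMSO. These AMF4 libraries meet the filter of 1 FPKM in 2 libraries by themselves, and these DMSO libraries do not. TMAC2 was not examined in the fit with no filter, so its call, 1 of the 3 with AMF4, is a description. The 3 SnRK2 kinase genes and the 6 genes for turnover or modification of ABI5 and the ABFs gave 0 calls against DMSO at any time, where at most 4.21% of all genes were called higher and 4.35% lower. In each of the 4 treatments 2 of the 3 SnRK2 genes were called lower at 24 h than at 6 h and 0 higher. Of all genes 5.7% to 7.62% were called lower and 5.63% to 7.9% higher. SNRK2.2 and SNRK2.3 were lower in all 4 treatments, and in DMSO leaves the differences were -2.93 for SNRK2.2 and -1.90 for SNRK2.3. Of the regulators of ABI5, HY5 was not called against DMSO at any time, and in DMSO leaves it was 1.76 higher at 24 h than at 6 h on the log2 scale. ABI3 and ABI4 stood at 1.09 and 1.19 FPKM in AMF4 6 h replicate 1, the library that stood apart, and ABI3 at 0.0531 FPKM in AMF4 6 h replicate 2, and both were listed at 0 in all other libraries.

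As a description over the 12 group means of log2(FPKM + 1), which share libraries and times, ABF3 and GBF3 were the pair of members most alike, with Pearson r = 0.986. ABF1 and ABI5 followed each other with r = 0.927, and ABF2 and ABF3 with r = 0.953. ABI5 passed the filter only through 6 h libraries, so a high level at 6 h is built into each of its r values. Among all genes tested, the genes most like ABF1 were GID1A, a gibberellin receptor (r = 0.997), ACD31.2 and AT1G22570, and those most like ABF2 were WRKY57 (r = 0.97), AT5G57610 and AT5G37550. For ABF3 they were GBF3, AT5G57610 and the kinase gene CIPK6 (r = 0.97), for GBF3 they were ABF3, the homeodomain gene ATHB12 (r = 0.98) and ECT8, and for ABF4 they were AT1G21529 (r = 0.95), AT5G47590 and AT3G51370. ABI5 was closest to the kinase gene CIPK25 (r = 0.98), AT1G45163 and RIC7. AFP1 was closest to the invertase inhibitor gene C/VIF1 (r = 0.97), ATHB7 and the phosphatase gene HAI1, AFP3 to RD29B (r = 0.95), AT1G63570 and AT5G19860, and AFP2 to AT1G50040 (r = 0.95), AT5G51140 and AT1G30440.

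Several of the genes share bases with a neighbour on the other strand in TAIR10.1, and whether strand was used in counting is not given in the sources used here, so reads in the shared bases could belong to either gene. The shared length with a gene in the table was 246 bases for GBF3, 123 for ABF1, 32 for AFP1, 24 for ABF3, 14 for AFP2 and 6 for ABF4. ABF2, ABI5 and AFP3 overlap with no annotated gene. The neighbour of GBF3, AT2G46280, averaged 38.0 FPKM with ABA, 30.7 FPKM with AMF1β and 29.8 FPKM with AMF4, against 52.8 FPKM with DMSO at 6 h, and its log2 differences of -0.46, -0.77 and -0.81 had the opposite sign to those of GBF3 and did not pass the fold threshold. The neighbour of AFP1, RPK1, a receptor kinase gene, was called higher at 6 h with AMF1β (1.02) and AMF4 (1.11). It averaged 9.78, 11.6 and 12.9 FPKM with ABA, AMF1β and AMF4, against 5.19 FPKM with DMSO. ABF1, ABF4 and AFP2 also share 620, 2516 and 494 bases with annotated long noncoding RNAs (AT1G07587, AT3G03815 and AT1G05033) that were not analysed here.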

How the data were processed

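Reads were mapped with TopHat2 to TAIR10 and quantified with Cufflinks, per the submitters' processing notes (no tool versions are given in the sources used here). Deposited values are FPKM per gene, which the authors made from the mapped reads of each library, and no read counts were used. All 29 libraries had a labelled group, and 0 columns of per-sample values were left unmapped. Values were taken as log2(FPKM + 1), and genes with at least 1 FPKM in at least 2 libraries were kept (18521 of 33559). A limma model (limma 3.58.1 in R 4.3.3, variance moderation with a mean trend) with one mean for each of the 12 groups gave every contrast, two-sided, with Benjamini-Hochberg adjustment over all genes kept. The model was tested on simulated data. Leaving ABI5 out of the counts, and taking its tests from the fit without the filter, was decided after its values were seen. Standard errors and 95% intervals come from this model. The 9 genes are all named. Of each pathway list, at most the 2 genes with the largest absolute log2 fold change among those called in any comparison with DMSO are named, as are the 3 genes most correlated with each member over the group means, and clock and marker genes whose values stand beside a result. SNRK2.2, SNRK2.3, HY5, ABI3, ABI4 and the genes that overlap members were named after their values were seen. The members and lists were chosen with earlier results of these data known. Depth is known only relative to other libraries, so no counting intervals are given. Promoter windows came from the RefSeq annotation of TAIR10.1. Alternatives changed the added FPKM, the filter, the scaling, the libraries in the fit, the replicate block and each library in turn. Leaving out DMSO 6 h replicates 1 and 2 together, or AMF4 6 h replicates 1 and 2 together, was chosen after seeing the data.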

Additional observations from a re-analysis of the deposited data

Results flagged for a closer look

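For 8 results the change between 6 and 24 h differed between treatments by the interaction term of the limma model. The ABA difference from DMSO was smaller at 24 h than at 6 h for ABF3 (-1.315), ABI5 (-1.08), GBF3 (-1.932), AFP1 (-2.837) and AFP3 (-1.802), as log2 values. The AMF4 difference from DMSO was smaller at 24 h for ABF3 (-1.11) and ABI5 (-1.432). ABI5 passed the filter only through 6 h libraries, so its values are a description. The AMF4 difference from ABA was larger at 24 h for AFP3 (1.888). The DMSO libraries enter 7 of the 8 values, and DMSO levels of ABF3, GBF3 and AFP1 were themselves higher at 24 h than at 6 h.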

How the results depend on the processing

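Counts here are over the 9 genes, ABI5 included. Of the 46 calls, 24 were kept under every alternative and 0 reversed. A further 5, all of ABI5, were kept under every alternative except the filter on a mean of 1 FPKM, under which ABI5 was not tested. ABI5 passed the main filter only through 6 h libraries, where it was high, so the keeping of its calls is no support for them. Without the filter on low values the count of called genes was 0 with AMF1β against DMSO at 24 h, against 1 with the filter, 3 with AMF4 against DMSO at 24 h, against 5, 1 with AMF4 against ABA at 24 h, against 3, and 0 for the AMF4 minus ABA interaction, against 1. The calls lost without the filter were AFP3 with AMF1β at 6 h (adjusted p = 0.0582), AFP1 with AMF1β (0.0671) and GBF3 and AFP2 with AMF4 (0.0559 and 0.0810) at 24 h, AFP1 and AFP3 for AMF4 against ABA (0.0592 and 0.0533), AFP1 at 24 h against 6 h with AMF1β and AMF4 (0.0546 and 0.0735), AFP3 for ABA minus DMSO (0.0551) and AMF4 minus ABA (0.103), and ABF3 for AMF4 minus DMSO (0.102). Quantile scaling took ABF4 for AMF4 against ABA to 0.97, under the fold threshold. At 72 h AMF4 against DMSO gave 1 call, AFP3, with median-of-ratios scaling, 1, AFP3, with a replicate block and 4 when DMSO at 24 and 72 h was pooled into 1 control, against 0. The 4 were ABF4 (1.03, adjusted p = 0.000512), AFP1 (1.91, 0.00242), AFP2 (1.61, 0.0011) and AFP3 (1.44, 0.00811). The pooled control mixes 24 and 72 h, and the share of all genes called with it was not counted. With a filter on a mean of 1 FPKM, which removes ABI5, ABA at 24 h against 6 h gave 1 call, against 2. The AMF4 minus DMSO interaction gave 1 call, against 2, without the filter, with the mean filter, with median-of-ratios or quantile scaling, and with each of the pairs of 6 h libraries left out (AMF4 replicate 1 and DMSO replicate 3, DMSO replicates 1 and 2, AMF4 replicates 1 and 2). Leaving out each library in turn gave 4 to 4 calls with ABA against DMSO at 6 h, 3 to 4 with AMF1β and 6 to 7 with AMF4, and at 24 h 0 to 1 with AMF1β and 2 to 5 with AMF4 against DMSO and 0 to 3 with AMF4 against ABA. For 24 h against 6 h it gave 5 to 6 with DMSO, 2 to 3 with ABA, 3 to 4 with AMF1β and 3 to 4 with AMF4, and for the interactions 3 to 6 for ABA minus DMSO, 0 to 2 for AMF1β minus DMSO, 1 to 3 for AMF4 minus DMSO and 0 to 1 for AMF4 minus ABA. Causes were not tested. The replicate numbers were shared by label only: same-numbered libraries of a time had correlations of their deviations of -0.253 to 0.243, over 0.1 in 9 of 35 pairs, and the replicate block gave 47 calls, 46 of them shared with the 46 calls without it. Quantile scaling moved the median of all genes by 0.103 for the AMF4 minus DMSO interaction. The groups of 1 or 2 libraries limit the 72 h results, and ABI5 lies near the low end of the values.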
